A study of Mus musculus with 6 samples.

Results

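*Il10* and 8 transcription factors that act on it or accompany it in CD4+ T cells, *Maf*, *Prdm1*, *Nfil3*, *Bhlhe40*, *Foxp3*, *Ikzf2*, *Ikzf3* and *Ikzf4*, were examined in T cells that had been re-stimulated with antigen under checkpoint blockade. The 9 genes were chosen by name from a total of 47643 in the deposited count table, and each was among the 11877 genes with 10 or more reads in the 6 libraries together. The choice was made with earlier results of these data known. The cells came from Tg4 *Nr4a3*-Tocky Tiger mice. Every mouse therefore carried a transgenic T cell receptor for a myelin basic protein (MBP) peptide, a fluorescent Timer driven by *Nr4a3*, and the Tiger allele, which reports *Il10* transcription through GFP. In all groups, mice were primed subcutaneously with 80 μg of the peptide, given 800 μg of antibody 24 h later, and re-challenged with 8 μg of peptide after a further 30 min. The antibody was isotype control, anti-PD1 or anti-Lag3. Spleens were taken 4 h after re-challenge, and CD4+ cells with both blue and red Timer fluorescence were sorted. Each group held 2 samples, described as biological duplicates. The p-values rest on a spread estimated from these pairs with information shared across all genes, not from each gene alone.

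IL-10 is a cytokine that restrains inflammation and is made by several kinds of T cell, including type 1 regulatory (Tr1) cells, which are best known for arising without *Foxp3* under repeated or strong antigen stimulation. c-Maf, encoded by *Maf*, binds and activates the *Il10* locus in most of these cells. Blimp-1 (*Prdm1*) and NFIL3 also favor *Il10* transcription in T cells, whereas BHLHE40 represses it. FOXP3 defines regulatory T cells, and Helios (*Ikzf2*), Aiolos (*Ikzf3*) and Eos (*Ikzf4*) are zinc finger proteins of the Ikaros family, of which Helios and Eos are enriched in regulatory T cells.

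With anti-PD1, *Nfil3* and *Bhlhe40*, an activator and a repressor of *Il10*, both rose relative to isotype, and *Maf* missed the threshold by a narrow margin. The calls of *Nfil3* and *Bhlhe40* depended on the method and on single libraries. *Il10* itself had higher levels with either blocking antibody than with isotype, but its few reads did not pass the test across all genes. No member was called with anti-Lag3, where 0.0421% of all genes were called relative to isotype. *Foxp3*, *Ikzf2*, *Ikzf3* and *Ikzf4* were not called in any comparison, and the 2 isotype samples differed in *Foxp3* by more than the group means did.

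Libraries held 2107715 to 2648920 counts, so that 3 reads, the floor used for detection, corresponded to 1.11 to 1.44 CPM (reads per 1000000 reads of a library). CPM values are scaled by TMM, a normalization for library composition. The T cell label was borne out by *Cd3e* (131 to 193 CPM), *Cd4* (131 to 190 CPM) and *Trac* (332 to 419 CPM), while *Cd79a*, *Zbtb46* and *Siglech*, markers of B cells and dendritic cells, were at 0 in every library. The other B cell markers were detected, 8 of 9 with reads. Summed over the list they gave 141 and 167 CPM in isotype, 71.4 and 64.2 CPM in anti-PD1, and 95.3 and 149 CPM in anti-Lag3, *Ighm* being the most abundant. Macrophage and monocyte markers (10 of 10 with reads, led by *Lyz2*) summed to 82.5 and 57.6 CPM, 23.0 and 42.1 CPM, and 39.6 and 38.6 CPM in the same order. These cell types can also transcribe *Il10*. On average both lists were highest in the isotype group. In anti-PD1 against isotype, *Ighm*, *Igkc* and *C1qa* of these lists fell and, of 8 T cell markers, *Cd5* rose. The other T cell markers were not called. Of the 8, 3 had log2 fold changes above 0 and 5 below, with a median of -0.28. *Ighm* was also lower with anti-PD1 than with anti-Lag3. No marker was called in anti-Lag3 against isotype, where 0.0421% of all genes were called. The markers moved in this way beside the members, and the part of these cells in any value below was not tested. Plasma cell markers summed to at most 4.71 CPM, dendritic cell markers to at most 1.88 CPM, NK and CD8 T cell markers to 29.8 to 56.1 CPM and erythroid markers to 18.7 to 50.5 CPM. In bulk samples, fewer cells that transcribe a gene and less of its RNA per cell cannot be told apart.

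RefSeq promoter windows matched 3 of the 9 members (*Nfil3*, *Prdm1* and *Foxp3*), and that of *Nfil3* is printed here. The window runs from 250 bases before to 50 bases after the annotated start, at chr13:52980990-52981289 on the minus strand (GRCm38.p6). It is shown because *Nfil3* had the largest fold change among the called members. Capitals mark every match to the motifs searched.

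Nfil3 promoter: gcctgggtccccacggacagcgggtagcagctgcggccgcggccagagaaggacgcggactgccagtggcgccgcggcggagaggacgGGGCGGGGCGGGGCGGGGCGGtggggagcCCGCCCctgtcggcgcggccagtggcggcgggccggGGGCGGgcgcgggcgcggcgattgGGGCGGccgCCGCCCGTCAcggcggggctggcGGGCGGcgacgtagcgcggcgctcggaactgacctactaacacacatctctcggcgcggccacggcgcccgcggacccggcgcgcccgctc

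Its GC content was 81.7%, at or above that of 99.5% of the 32851 windows in the table, and it held 54 CG dinucleotides. Motifs were searched on both strands. The GC box GGGCGG matched 9 times, with 4 copies in a row that overlap each other by 1 base, and 35.7% of all windows held at least 1 match. The core of the cyclic AMP response element, TGACG, matched 1 time on the reverse strand, overlapping a GC box by 1 base, and was in 20.8% of all windows. The E-box CACGTG (7.15% of windows), AP-1 site TGANTCA (7.81%), NFIL3 site TTANGTAA (2.32%), Maf half-site TGCTGA (19.5%), NFAT core GGAAAA (23.4%) and forkhead core GTAAACA (3.65%) had no match in the *Nfil3* window. The *Prdm1* window matched the AP-1 site, the cyclic AMP element core and the forkhead core 1 time each, and its GC content was 59.7%.

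*Il10* (ENSMUSG00000016529, chr1:131019845-131024974, plus strand, GRCm38) was a gene of few reads in all libraries. Isotype samples had 7 and 5 reads, or 3.30 and 2.01 CPM. Anti-PD1 samples had 19 and 14 reads, or 9.10 and 5.72 CPM, and anti-Lag3 samples 13 and 22 reads, or 5.48 and 8.17 CPM. All 4 samples from mice given a blocking antibody lay above both isotype samples, and the anti-PD1 and anti-Lag3 samples overlapped. The group means were 2.66 ± 0.909 CPM for isotype, 7.41 ± 2.39 CPM for anti-PD1 and 6.83 ± 1.90 CPM for anti-Lag3 (SD, n = 2).

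The *Il10* log2 fold change was 1.47 (SE 0.64) for anti-PD1 against isotype, a 2.77-fold difference with a 95% confidence interval of 1.13 to 6.78. The unadjusted p was 0.0267 and the Benjamini-Hochberg adjusted p of edgeR's quasi-likelihood test 0.492, so the gene was not called. For anti-Lag3 against isotype it was 1.37 (SE 0.64), or 2.58-fold with an interval of 1.06 to 6.30, with an unadjusted p of 0.0374 and an adjusted p of 0.803. These values share the same isotype samples. Between anti-PD1 and anti-Lag3, the log2 fold change was 0.10 (SE 0.56, adjusted p = 0.995), with an interval that spans 0.490-fold to 2.35-fold. With few reads and 2 samples per group, the data do not separate the values within this interval. None of 18 alternative fits called *Il10* in any comparison, although DESeq2 gave no adjusted p for anti-PD1 against anti-Lag3.

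In the deposited rlog table, a log2 scale on which genes of few reads are drawn toward their mean, *Il10* differed by 0.073 between anti-PD1 and isotype and by 0.065 between anti-Lag3 and isotype. These differences are far smaller than the log2 fold changes of 1.47 and 1.37 from the counts, and they kept the same direction. The libraries were primed at the poly(A) tail, and the Tiger allele carries its GFP cassette in the 3′ part of *Il10*. How many reads of this allele map outside the reference gene was not tested, and all groups carried it.

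**Figure D1:**
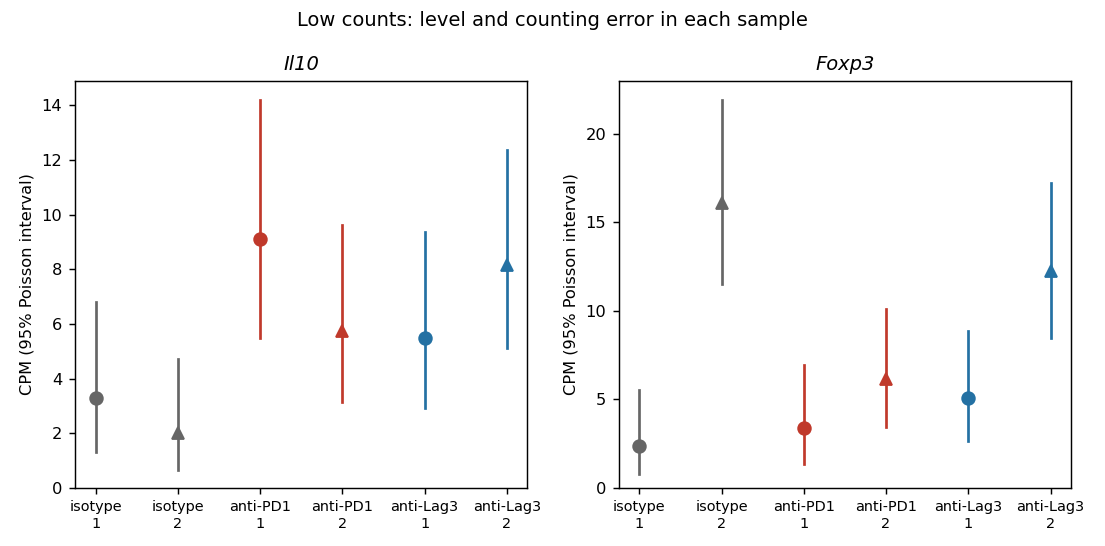
CPM of Il10 (left) and Foxp3 (right) in each of the 6 libraries, with exact 95% Poisson intervals that cover counting error only. Il10 intervals overlap within each group, but that of isotype replicate 2 (0.653 to 4.70 CPM) lies below those of anti-PD1 replicate 1 (5.48 to 14.2 CPM) and anti-Lag3 replicate 2 (5.12 to 12.4 CPM), and the 2 isotype libraries differ in Foxp3 (2.36 and 16.1 CPM) by more than their intervals.

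*Il10* was the only IL-10 family cytokine with more than 23 reads in all. *Il22*, whose product acts on epithelial cells, had 1 and 0 reads in isotype, 8 and 7 in anti-PD1, and 6 and 1 in anti-Lag3, and was not called (adjusted p = 0.474 for anti-PD1 against isotype, 0.911 for anti-Lag3 against isotype, and 0.951 for anti-PD1 against anti-Lag3). *Il24* had 1 read over all libraries, and *Il19* and *Il20* had 0.

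Among the activators of *Il10*, *Nfil3* (ENSMUSG00000056749, chr13:52967209-52981073, minus strand), a basic leucine zipper factor, had the clearest difference. Its level was 10.8 and 7.65 CPM in isotype, 29.7 and 29.0 CPM in anti-PD1, and 19.8 and 7.80 CPM in anti-Lag3. Both anti-PD1 samples lay above the other 4, while the 2 anti-Lag3 samples fell on different sides of the midpoint between the other groups. *Nfil3* rose 3.19-fold with anti-PD1 relative to isotype, a log2 fold change of 1.67 (SE 0.37, adjusted p = 0.00929). Relative to anti-Lag3, the anti-PD1 level was 2.15-fold higher (log2 1.10, SE 0.35), which was not called (unadjusted p = 0.00316, adjusted p = 0.315). The log2 fold change of anti-Lag3 against isotype was 0.57 (SE 0.40, adjusted p = 0.912), and it was -0.24 without anti-Lag3 replicate 1.

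The activator c-Maf had the most reads of the activators. *Maf* (ENSMUSG00000055435, chr8:115682942-115707794, minus strand) stood at 212 and 256 CPM in isotype, 304 and 349 CPM in anti-PD1, and 290 and 225 CPM in anti-Lag3. The anti-PD1 samples were the 2 highest, and the anti-Lag3 samples overlapped those of isotype. The log2 fold change of anti-PD1 against isotype was 0.48 (SE 0.13), a 1.39-fold difference with a 95% interval of 1.17 to 1.66. Its adjusted p was 0.0511, just outside the threshold of 0.05, and 8 of the 18 alternative fits called it, with adjusted p between 0.00291 and 0.688. Against anti-Lag3, the difference was 0.34 (SE 0.12, adjusted p = 0.475), and for anti-Lag3 against isotype it was 0.14 (SE 0.13, adjusted p = 0.946). Without anti-Lag3 replicate 1, the difference between anti-PD1 and anti-Lag3 was 0.54 and was called.

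*Prdm1* (ENSMUSG00000038151, chr10:44437177-44528501, minus strand), which encodes Blimp-1, was read at 12.3 and 6.84 CPM in isotype, 20.6 and 14.3 CPM in anti-PD1, and 9.70 and 10.8 CPM in anti-Lag3. Its anti-PD1 samples were again the 2 highest, with anti-PD1 replicate 2 close to isotype replicate 1. The log2 fold change of anti-PD1 against isotype was 0.88 (SE 0.40, adjusted p = 0.543), and that of anti-PD1 against anti-Lag3 was 0.76 (SE 0.39, adjusted p = 0.780). Anti-Lag3 against isotype gave 0.12 (SE 0.42, adjusted p = 0.986), a 95% interval from 0.606-fold to 1.94-fold. No fit called *Prdm1*.

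The repressor of the group moved with the activators. *Bhlhe40* (ENSMUSG00000030103, chr6:108660629-108666925, plus strand), a basic helix-loop-helix factor that restrains *Il10* in helper T cells, measured 70.7 and 55.9 CPM in isotype, 105 and 98.5 CPM in anti-PD1, and 75.9 and 73.9 CPM in anti-Lag3. The groups did not overlap, in the order isotype, anti-Lag3, anti-PD1, although isotype replicate 1 and anti-Lag3 replicate 2 lay close together. *Bhlhe40* rose 1.61-fold with anti-PD1 relative to isotype (log2 fold change 0.69, SE 0.17, adjusted p = 0.0305). It was 1.36-fold higher with anti-PD1 than with anti-Lag3 (log2 0.44, SE 0.17), which was not called (unadjusted p = 0.0116, adjusted p = 0.531). The anti-Lag3 difference from isotype was 0.25 (SE 0.17, adjusted p = 0.914).

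The calls of *Nfil3* and *Bhlhe40* depended on the method and on single libraries. DESeq2 gave adjusted p-values of 0.132 and 0.194 for them at nearly the same fold changes, and neither was called without isotype replicate 2, without anti-PD1 replicate 1 or without anti-PD1 replicate 2. In those 3 fits, *Nfil3* kept log2 fold changes of 1.43, 1.66 and 1.69, and *Bhlhe40* of 0.53, 0.64 and 0.74.

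**Figure D2:**
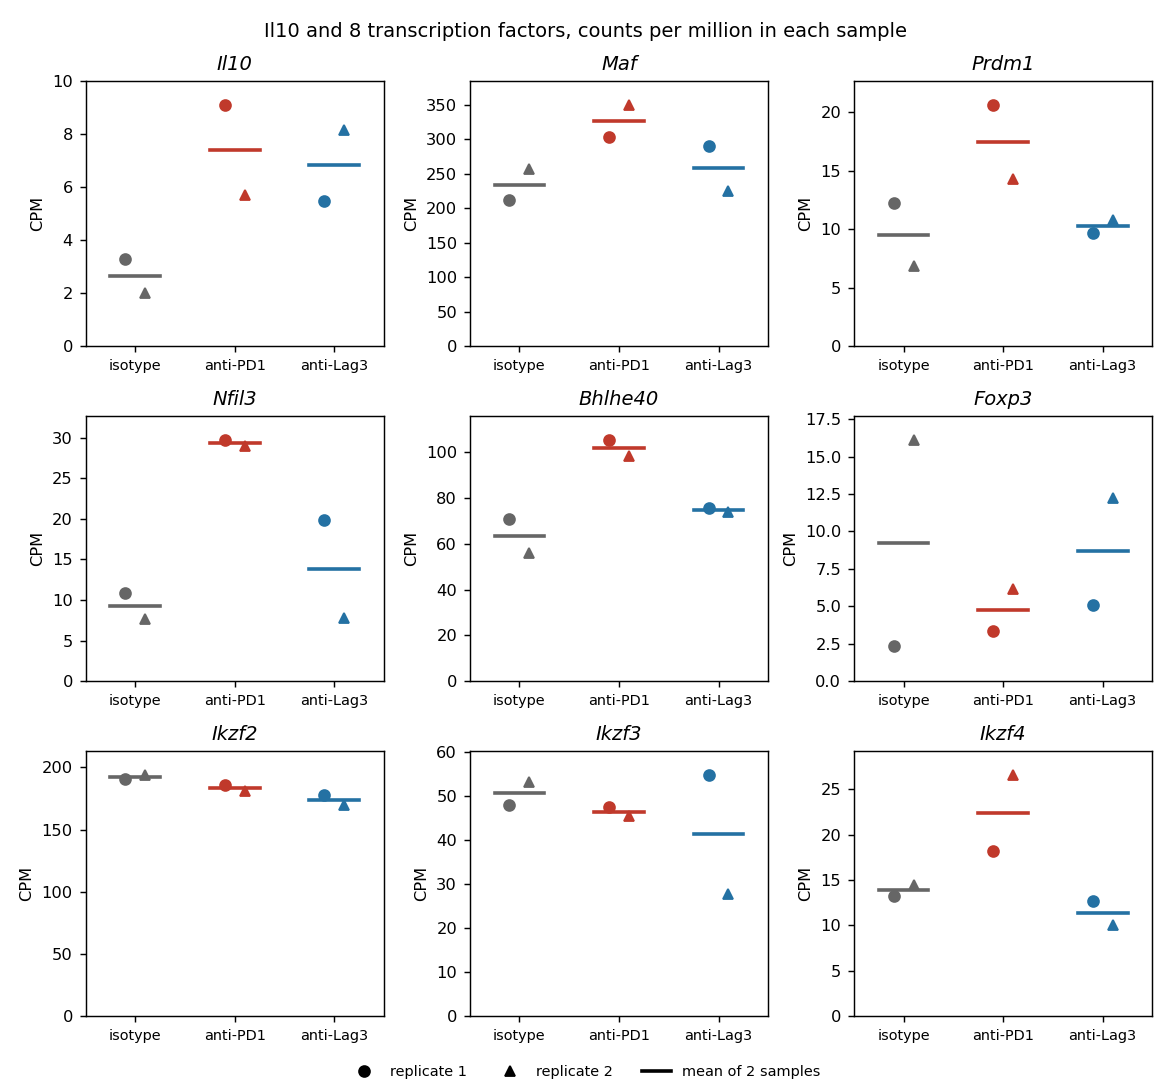
TMM-scaled CPM of the 9 genes in each sample (circles, replicate 1 and triangles, replicate 2), with the mean of the 2 samples of a group as a bar, on axes that start at 0. Both anti-PD1 samples are the highest 2 of the 6 for Maf, Prdm1, Nfil3, Bhlhe40 and Ikzf4. Of these, only Nfil3 and Bhlhe40 were called, both against isotype. Over all genes, 37.4% had anti-PD1 and isotype samples that did not overlap, in either direction. Foxp3 replicate 2 lies above replicate 1 in each group.

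*Foxp3* (ENSMUSG00000039521, chrX:7573644-7595245, plus strand) was read at 2.36 and 16.1 CPM in isotype (5 and 40 reads), 3.35 and 6.13 CPM in anti-PD1 (7 and 15 reads), and 5.06 and 12.3 CPM in anti-Lag3 (12 and 33 reads). Replicate 2 was the higher sample in all 3 groups, and the isotype pair spanned the values of the other groups. The log2 fold change of anti-PD1 against isotype was -0.97 (SE 0.60, adjusted p = 0.745), and it changed sign, to 1.01, without isotype replicate 2. Anti-Lag3 against isotype gave -0.11 (SE 0.55, adjusted p = 0.992), which became 1.87 without the same sample and 0.37 without anti-Lag3 replicate 1. Anti-PD1 against anti-Lag3 gave -0.86 (SE 0.60, adjusted p = 0.886). No direction can thus be given for *Foxp3*. Its 3′ end overlaps *Ccdc22* on the other strand, a gene with 108 reads over all samples. The strand setting of the counting is not given in the sources used here, so reads of the pair might not be separable.

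Helios was the steadiest member. *Ikzf2* (ENSMUSG00000025997, chr1:69531214-69687245, minus strand) was at 191 and 194 CPM in isotype, 186 and 181 CPM in anti-PD1, and 178 and 170 CPM in anti-Lag3. The groups did not overlap, with isotype highest and anti-Lag3 lowest. The log2 fold changes were -0.071 (SE 0.13, adjusted p = 0.966) for anti-PD1 and -0.15 (SE 0.13, adjusted p = 0.941) for anti-Lag3, each against isotype. Their 95% intervals ran from 0.798-fold to 1.14-fold and from 0.756-fold to 1.08-fold. Between the antibodies, the value was 0.078 (SE 0.13, adjusted p = 0.979).

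*Ikzf3* (ENSMUSG00000018168, chr11:98464902-98546031, minus strand), encoding Aiolos, was at 48.1 and 53.1 CPM in isotype, 47.4 and 45.4 CPM in anti-PD1, and 54.8 and 27.9 CPM in anti-Lag3. Anti-Lag3 replicate 2 was the lowest of the 6 samples and anti-Lag3 replicate 1 the highest. The log2 fold change was -0.13 (SE 0.23, adjusted p = 0.970) for anti-PD1 and -0.31 (SE 0.23, adjusted p = 0.930) for anti-Lag3 against isotype, the second of which was 0.12 without anti-Lag3 replicate 2. Anti-PD1 against anti-Lag3 gave 0.18 (SE 0.24, adjusted p = 0.976), and -0.25 without that sample.

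*Ikzf4* (ENSMUSG00000002578, chr10:128630843-128645991, minus strand), encoding Eos, a partner of FOXP3, was at 13.2 and 14.5 CPM in isotype, 18.2 and 26.6 CPM in anti-PD1, and 12.7 and 10.03 CPM in anti-Lag3. The anti-PD1 samples were above all the others. The log2 fold change was 0.70 (SE 0.34, unadjusted p = 0.0495, adjusted p = 0.613) for anti-PD1 against isotype, 0.99 (SE 0.35, unadjusted p = 0.00699, adjusted p = 0.445) against anti-Lag3, and -0.29 (SE 0.37, adjusted p = 0.962) for anti-Lag3 against isotype. With *Ikzf1* (Ikaros) and *Ikzf5* (Pegasus), 0 of the 5 Ikaros family genes were called in any of the 3 comparisons by edgeR or by the 18 alternatives. Of all genes, edgeR called 0.901% in anti-PD1 against isotype, 0.0421% in anti-Lag3 against isotype and 0.303% in anti-PD1 against anti-Lag3. At an unadjusted p under 0.05, *Ikzf4* passed in both comparisons of anti-PD1, as did 8.12% of all genes against isotype and 6.53% against anti-Lag3. *Ikzf1* had log2 fold changes of -0.12 (SE 0.10) with anti-PD1 and -0.17 (SE 0.10) with anti-Lag3 relative to isotype. *Ikzf5* had 0.27 (SE 0.20) with anti-Lag3 relative to isotype and -0.27 (SE 0.20) for anti-PD1 against anti-Lag3.

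Counted over the 9 members, 2 rose and 0 fell in anti-PD1 against isotype, where 0.901% of all genes tested were called. The anti-PD1 samples lay wholly above those of isotype for 6 members and wholly below for 2, and 37.4% of all genes had groups that did not overlap. The median log2 fold change was 0.69, against 0.0045 over all genes. At an unadjusted p under 0.05, 6 members passed, as did 8.12% of all genes. In anti-Lag3 against isotype, edgeR called 0 members, where 0.0421% of all genes were called (5 genes), and DESeq2 called 0. At an unadjusted p under 0.05, 1 of the 9 members passed, *Il10*, and 5.96% of all genes did. Here 2 members lay wholly above isotype and 2 wholly below, against 34.6% of all genes without overlap, and the median was 0.12. In anti-PD1 against anti-Lag3, edgeR and DESeq2 again called 0 members, where edgeR called 0.303% of all genes, and 4 passed at an unadjusted p under 0.05 (*Nfil3*, *Ikzf4*, *Maf* and *Bhlhe40*), against 6.53% of all genes. The anti-PD1 samples lay above those of anti-Lag3 for 6 members and below for 0, with 35.9% of all genes without overlap, and the median was 0.34. Each pair of comparisons shares a group, so these counts are not independent. The members were chosen with earlier results of these data known, so the shares over all genes stand beside them as a description, not a test.

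**Figure D3:**
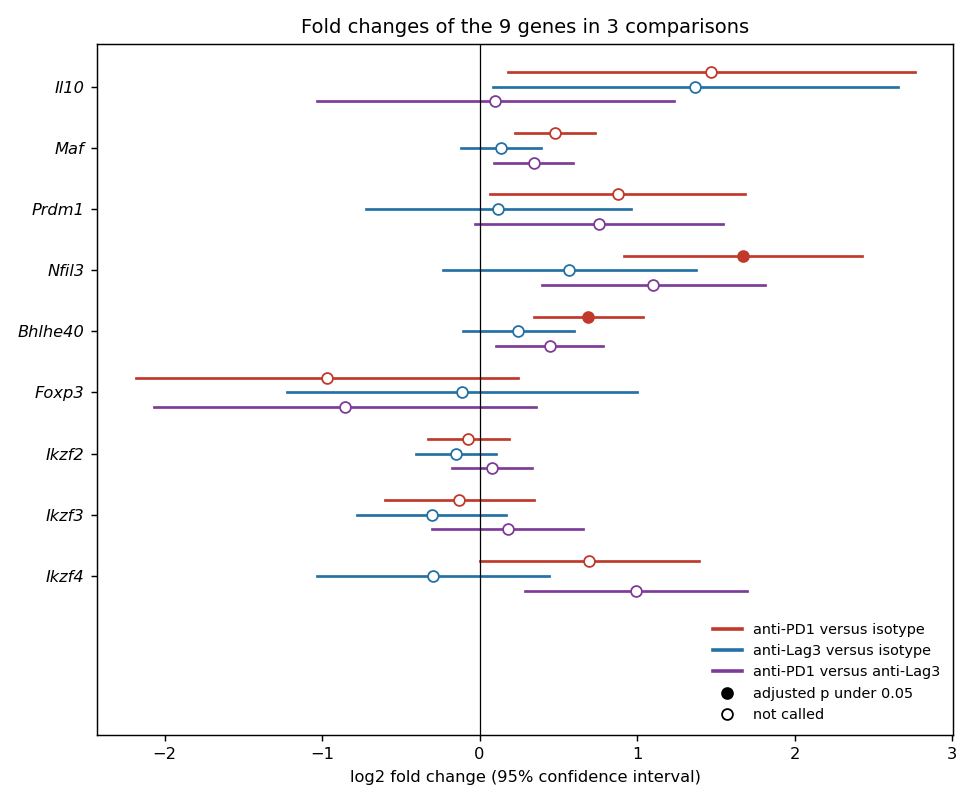
Log2 fold changes of the 9 genes with 95% confidence intervals in the 3 comparisons, filled where the adjusted p was under 0.05. Only Nfil3 (1.67) and Bhlhe40 (0.69) are filled, both for anti-PD1 against isotype, and the Foxp3 intervals are among the widest.

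Over the 6 samples, some members varied alike. As a description of 6 points that share group and depth, Pearson's r of log2 CPM was 0.93 for *Prdm1* and *Bhlhe40*, 0.89 for *Nfil3* and *Bhlhe40*, 0.85 for *Maf* and *Nfil3*, and 0.82 for *Maf* and *Ikzf4*. *Il10* had its highest r among the members with the repressor *Bhlhe40* (0.79) and with *Prdm1* (0.73), and 0.32 with *Maf*. With *Ikzf2* its r was -0.72, and with *Foxp3* -0.25. Among 5433 genes with a mean of at least 20 CPM, the profiles most like that of *Il10* were those of *Nup62* (r = 0.997, a nucleoporin), *Clasp2* (0.99, a microtubule-binding protein) and *Slc2a1* (0.99, the glucose transporter GLUT1). *Slc2a1* had 27.3 and 21.7 CPM in isotype, 49.4 and 41.7 CPM in anti-PD1, and 39.6 and 46.4 CPM in anti-Lag3. The profiles most like that of *Maf* were those of *Tes* (0.99), *Kif21b* (0.98) and *Myo9a* (0.98), which act on the cytoskeleton. For both members these are the highest r over all genes compared, on 6 points, and whether they mean a link was not tested. *Il10* had only 5 to 22 reads per library.

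Of 20 other transcription factors known to act on *Il10*, 19 were tested (*Egr3* was at 0 reads), and 5 rose and 1 fell with anti-PD1 relative to isotype. Of all genes tested, 0.901% were called in this comparison. Like the members, this list and those below were chosen with earlier results of these data known, so their counts are a description, not a test. *Rora*, a nuclear receptor of the ROR family, was at 138 and 80.9 CPM in isotype, 301 and 267 CPM in anti-PD1, and 142 and 124 CPM in anti-Lag3, and rose by 1.39 on the log2 scale (SE 0.16, adjusted p = 9.16e-08). The anti-PD1 samples stood apart from the other 4, and the direct comparison with anti-Lag3 was also called (log2 1.10, SE 0.15, adjusted p = 3.33e-05). *Ahr*, the aryl hydrocarbon receptor and a partner of c-Maf in Tr1 cells, was at 15.6 and 19.7 CPM in isotype, 52.2 and 43.3 CPM in anti-PD1, and 35.4 and 18.2 CPM in anti-Lag3. It rose by 1.42 (SE 0.29, adjusted p = 0.00251).

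The signal transducers and activators of transcription in the list also rose. *Stat3*, which carries the signals of IL-6, IL-21 and IL-10, was at 323 and 260 CPM in isotype, 473 and 438 CPM in anti-PD1, and 296 and 352 CPM in anti-Lag3. It rose by 0.65 (SE 0.12, adjusted p = 0.000626) relative to isotype and by 0.49 (SE 0.11, adjusted p = 0.0420) relative to anti-Lag3. *Stat4*, downstream of IL-12, rose by 0.93 (SE 0.19, adjusted p = 0.00243), and *Irf4*, a factor induced in a graded manner by antigen receptor signals, by 0.51 (SE 0.11, adjusted p = 0.00802). *Nfatc1*, a calcium-dependent factor, stood at 209 and 244 CPM in isotype and 160 and 139 CPM in anti-PD1, and fell by 0.60 on the log2 scale (SE 0.13, adjusted p = 0.00831). The list had a median log2 fold change of 0.33. Only *Rora* of these was called in all 18 alternative fits. The number of called factors was 2 without isotype replicate 2 (*Ahr* and *Rora*) and 2 without anti-PD1 replicate 1 (*Nfatc1* and *Rora*).

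With anti-Lag3, 0 of the 19 factors were called relative to isotype by edgeR or by any of the 18 alternatives, and the median log2 fold change was 0.13. Of all genes, edgeR called 0.0421% in this comparison. Only 2 passed at an unadjusted p under 0.05, *Gata3* (log2 -0.99, SE 0.33, unadjusted p = 0.00456, adjusted p = 0.642), a Th2 factor that was at 47.5 CPM in isotype replicate 2 and at 12.5 to 22.3 CPM in the other 5 samples, and *Junb* (0.38, SE 0.15, unadjusted p = 0.0189, adjusted p = 0.717). Over all genes, 5.96% passed at that unadjusted threshold in anti-Lag3 against isotype. *Gata3* was not called in anti-PD1 against isotype either (log2 -1.14, SE 0.34, adjusted p = 0.106).

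**Figure D4:**
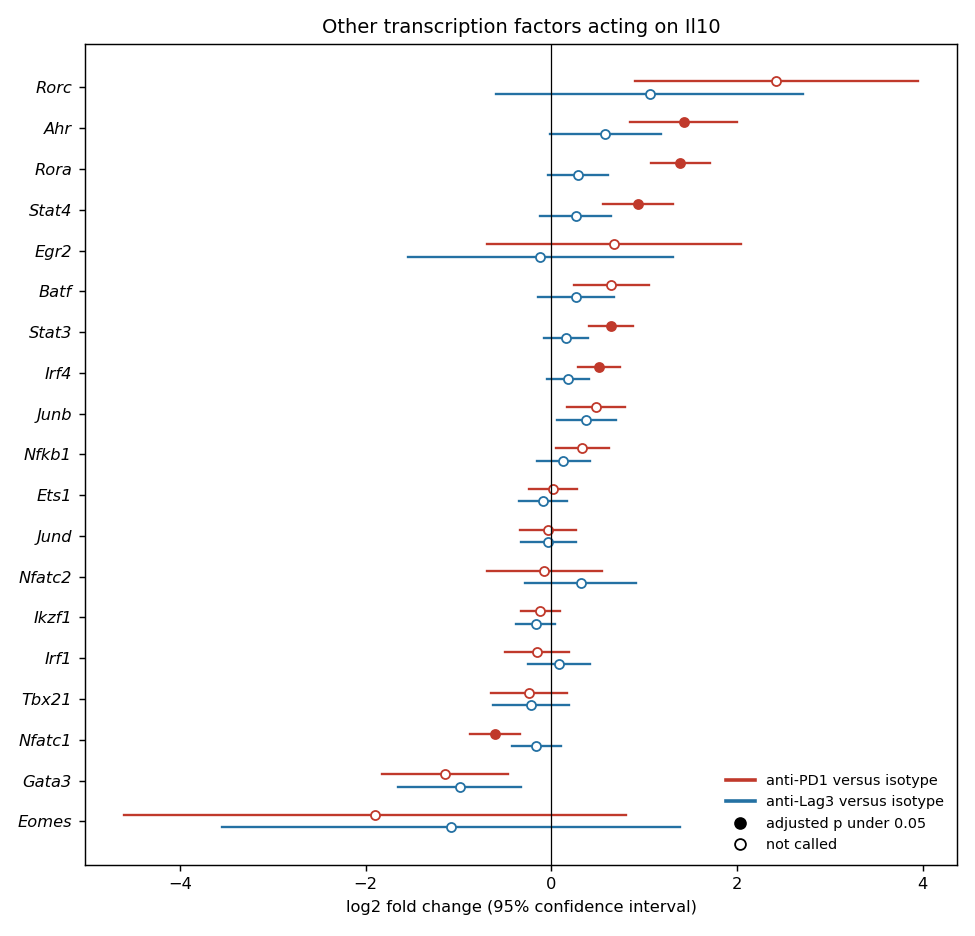
Log2 fold changes with 95% confidence intervals of the 19 tested transcription factors that act on Il10, for anti-PD1 and anti-Lag3 against isotype. Filled points (adjusted p under 0.05) are Ahr, Rora, Stat4, Stat3 and Irf4 on the higher side and Nfatc1 on the lower side, all for anti-PD1.

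Receptors and cytokines that feed into *Il10* included the largest rises near the pathway. Of 13 such genes, 3 rose and 0 fell with anti-PD1 relative to isotype, where 0.901% of all genes were called. *Il12rb2*, the inducible chain of the IL-12 receptor, was at 17.4 and 12.9 CPM in isotype, 100.1 and 109 CPM in anti-PD1, and 43.0 and 28.6 CPM in anti-Lag3, with no overlap between any of the groups. It rose by 2.80 (SE 0.24, adjusted p = 1.55e-10) with anti-PD1 and by 1.24 (SE 0.26, adjusted p = 0.0497) with anti-Lag3, and it was higher by 1.56 (SE 0.21, adjusted p = 2.49e-05) with anti-PD1 than with anti-Lag3. The anti-Lag3 call stood at the edge of the threshold and was made in 5 of the 18 alternative fits. *Il21*, a cytokine that induces *Il10* through STAT3, was at 16.0 and 8.45 CPM in isotype, 60.4 and 41.7 CPM in anti-PD1, and 30.4 and 26.7 CPM in anti-Lag3. It rose by 2.07 (SE 0.30, adjusted p = 1.54e-05) with anti-PD1, and its difference of 1.24 (SE 0.31, adjusted p = 0.281) with anti-Lag3 was not called.

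*Icos*, the costimulatory receptor whose signals sustain IL-10 and IL-21 production, rose by 0.58 (SE 0.093, adjusted p = 8.59e-05) with anti-PD1, from 740 and 696 CPM in isotype to 981 and 1169.9 CPM. Anti-Lag3 samples had 928 and 910 CPM, a log2 difference of 0.36 (SE 0.093, adjusted p = 0.312). The *Icos* call was lost without anti-PD1 replicate 2 (adjusted p = 0.0969), whereas those of *Il21* and *Il12rb2* with anti-PD1 were made in all 18 alternative fits. The median log2 fold change of the 13 genes was 0.084 with anti-PD1 and 0.15 with anti-Lag3.

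On the receiving side of IL-10, 2 of 8 genes rose and 0 fell with anti-PD1 relative to isotype, where 0.901% of all genes were called. The 2 were *Stat3* and *Bcl3*, an NF-kappaB cofactor induced by IL-10 in myeloid cells. *Bcl3* was at 35.8 and 22.1 CPM in isotype, 73.8 and 52.7 CPM in anti-PD1, and 40.5 and 35.7 CPM in anti-Lag3, and it rose by 1.13 (SE 0.24, adjusted p = 0.00501). Both calls were lost without isotype replicate 2 or anti-PD1 replicate 1, and DESeq2 called only *Stat3*. *Il10ra*, the ligand-binding receptor chain, was read at 1.41 and 2.42 CPM in isotype, 0.958 and 0.409 CPM in anti-PD1, and 2.53 and 7.06 CPM in anti-Lag3, and was not called (adjusted p = 0.585 for anti-PD1 against anti-Lag3). With anti-Lag3 relative to isotype, 0 of the 8 were called by edgeR or DESeq2, where edgeR called 0.0421% of all genes. Beside 5.96% of all genes, 1 of the 8 passed at an unadjusted p under 0.05. This was *Socs3*, a feedback inhibitor of STAT3 signaling (log2 0.78, SE 0.27, unadjusted p = 0.00643, adjusted p = 0.667), followed by *Bcl3* (log2 0.40, SE 0.25, unadjusted p = 0.110). In anti-PD1 against anti-Lag3, *Stat3* alone of this list was called, and *Il12rb2* alone of the inputs, beside 0.303% of all genes.

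The surface and effector genes used to mark Tr1 cells numbered 14, of which 11 were tested. With anti-PD1 relative to isotype, where 0.901% of all genes were called, *Icos* and *Il21* rose and *Cd226* fell. *Cd226* encodes a costimulatory receptor that is high on human Tr1 cells. It was at 39.1 and 31.0 CPM in isotype, 20.1 and 9.81 CPM in anti-PD1, and 19.4 and 25.3 CPM in anti-Lag3, and fell by 1.24 (SE 0.31, adjusted p = 0.0366) with anti-PD1, a call made in 12 of the 18 alternative fits. *Lag3*, a surface marker of Tr1 cells, was at 2.60 to 7.59 CPM with no separation of groups, and *Itga2* had 2 reads over all samples. Without anti-PD1 replicate 2, only *Il21* of this list was called. With anti-Lag3 relative to isotype, edgeR and DESeq2 called 0 of the 11, where edgeR called 0.0421% of all genes. At an unadjusted p under 0.05, 4 passed, against 5.96% of all genes. *Il21* and *Icos* had the smallest p-values of the list. In anti-PD1 against anti-Lag3 both tools again called 0, where edgeR called 0.303% of all genes, and 3 passed unadjusted, against 6.53% of all genes. The 3 were led by *Il21* (log2 0.83, SE 0.26, adjusted p = 0.312) and *Icos* (log2 0.23, SE 0.092, adjusted p = 0.608).

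Of 18 genes listed for regulatory T cells besides the members, 15 were tested. With anti-PD1 relative to isotype, 3 rose and 1 fell, where 0.901% of all genes were called. The anti-PD1 samples lay wholly above those of isotype for 5 genes of the list and wholly below for 5. Over all genes, 37.4% had groups that did not overlap. *Tnfrsf18* (GITR) was at 119 and 109 CPM in isotype, 187 and 248 CPM in anti-PD1, and 196 and 168 CPM in anti-Lag3, and it rose by 0.94 (SE 0.14, adjusted p = 4.31e-05) with anti-PD1. Its difference of 0.68 (SE 0.14) with anti-Lag3 had an adjusted p of 0.0508. *Tnfrsf4* (OX40) rose by 0.81 (SE 0.11, adjusted p = 1.47e-05), and *Satb1*, a chromatin organizer, by 0.53 (SE 0.084, adjusted p = 7.54e-05). GITR and OX40 are also induced on conventional T cells by activation. *Izumo1r* (folate receptor 4), which marks regulatory and anergic cells, was at 51.8 and 77.7 CPM in isotype, 26.4 and 40.1 CPM in anti-PD1, and 49.8 and 67.2 CPM in anti-Lag3, and fell by 0.96 (SE 0.23, adjusted p = 0.0209) with anti-PD1. The rises of *Tnfrsf18*, *Tnfrsf4* and *Satb1* were called in all 18 alternative fits and the fall of *Izumo1r* in 14. No gene of the list was called by edgeR or DESeq2 with anti-Lag3 relative to isotype, where edgeR called 0.0421% of all genes. There 4 passed at an unadjusted p under 0.05, against 5.96% of all genes. *Tnfrsf18* and *Tnfrsf4* (log2 0.36, SE 0.11, adjusted p = 0.608) had the smallest p-values of the list. In anti-PD1 against anti-Lag3 edgeR called 0 and DESeq2 1 (*Satb1*), where edgeR called 0.303% of all genes. Unadjusted, 4 passed, against 6.53% of all genes. The smallest p-values of the list were those of *Satb1* (0.34, SE 0.083, adjusted p = 0.0545) and *Tnfrsf4* (0.45, SE 0.11, adjusted p = 0.0766).

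**Figure D5:**
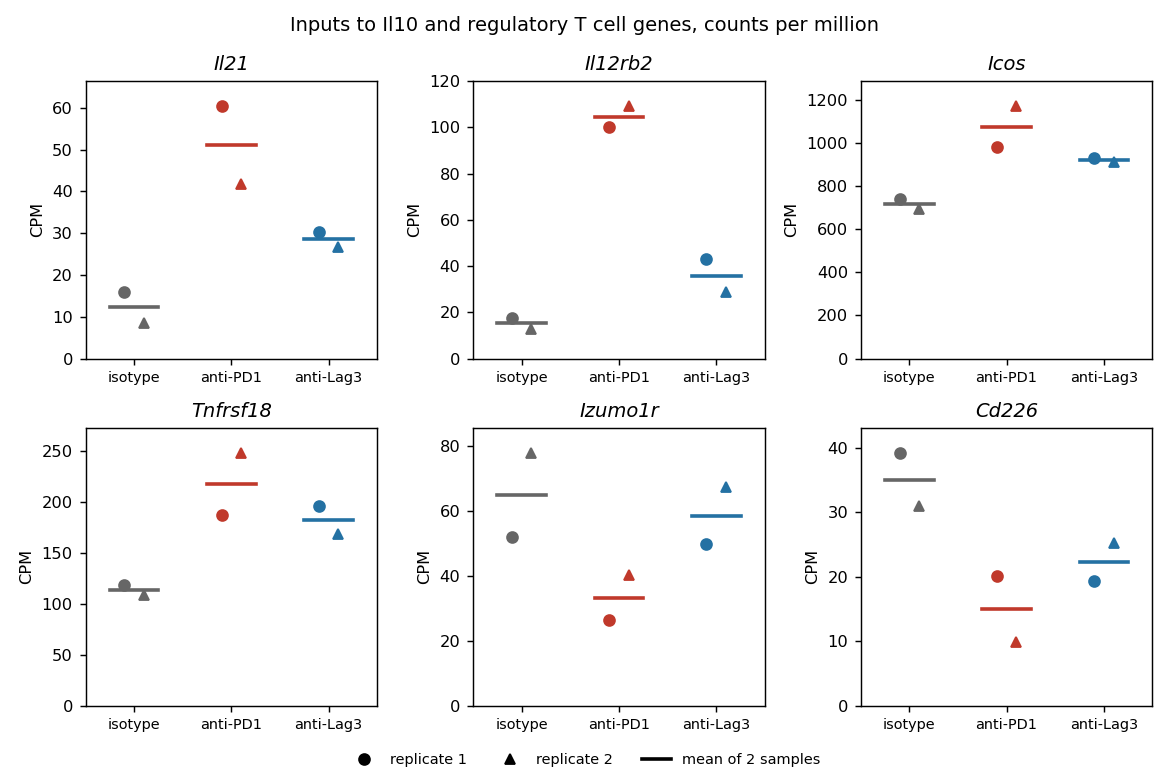
TMM-scaled CPM in each sample (circles, replicate 1 and triangles, replicate 2) and the group mean (bar) of 6 called genes that feed into Il10 or mark Tr1 and regulatory T cells, on axes that start at 0. Il12rb2 runs from 12.9 to 17.4 CPM in isotype and from 100.1 to 109 CPM in anti-PD1, with anti-Lag3 between, while Izumo1r and Cd226 are lowest with anti-PD1 on average.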

How the data were processed

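QuantSeq 3′ libraries were made by the authors from 25 ng of RNA of sorted splenic CD4+ Timer Blue+Red+ cells, 2 samples in each of 3 groups, which were taken from the sample labels. Reads were trimmed by the authors, aligned with STAR 2.5.2a to GRCm38 (mm10), and counted per Ensembl gene with HTSeq. The deposited count table holds these raw read counts. The authors also deposited rlog values, a log2 scale normalized for library size with DESeq2. The methods state that a further replicate batch, processed together, was excluded as an outlier, and it was not analysed here. The strand setting and annotation release are not given in the sources used here.

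The 11877 genes with 10 or more reads in the 6 libraries together were fitted jointly with edgeR 4.0.16 in R 4.3.3 (TMM, quasi-likelihood test), with Benjamini-Hochberg adjustment over all genes and a threshold of 0.05. Standard errors were the log2 fold change over the square root of F. Total counts limit precision for genes near the floor of 3 reads, and intervals on counts cover counting error only. Symbols and positions were looked up in GENCODE M21 (GRCm38) for 47224 of 47643 identifiers, and promoters in RefSeq. Fits were tested on simulated counts. Correlations used log2 CPM with a prior count of 2.

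The members and gene lists were chosen with earlier results of these data known. All members were named in each comparison, and of each list every called gene or, with none called, the 2 of smallest p. Of the cell type markers, those at 0 were named, with *Ighm* and *Lyz2* as the most abundant of their lists. *Cd3e* and *Cd4* were named although the T cell markers *Cd28*, *Lck* and *Cd3d* had higher mean CPM. *Il10ra*, *Lag3*, *Itga2* and, beside anti-PD1, *Gata3* were named after their values were seen. Alternatives were DESeq2 1.42.0, limma-voom (limma 3.58.1), limma on the rlog values, edgeR's newer method, other scalings, filters and thresholds, the 4 samples compared, each sample left out, and the replicate number as a block.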

Additional observations from a re-analysis of the deposited data

How the results depend on the processing

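Of the values of single members under the 18 alternatives, 451 kept direction and side of the threshold, 10 passed it anew, 8 no longer passed it and 12 changed sign, and 5 had no adjusted p with DESeq2. A group left with 1 sample was assumed to vary like the others. The number of members called in anti-PD1 against isotype was 2, and 0 with DESeq2 (69 genes called in all, against 107). It ranged from 0 to 3 as single samples were left out, when 53 to 185 genes were called in all. Maf was called as well, for 3 members, with limma-voom, without the filter on low counts, with the 4 samples compared (175 genes in all), without Gm42418 and the mitochondrial ribosomal RNA, at a threshold of 0.1 (166 genes in all), and without either anti-Lag3 sample. Between anti-PD1 and anti-Lag3, 0 to 2 members were called as single samples were left out, 2 (Maf and Nfil3) without anti-Lag3 replicate 1. No alternative called a member in anti-Lag3 against isotype. Few reads limit the precision for Il10 and Foxp3.

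Signs changed for Foxp3 in anti-Lag3 against isotype with limma-voom (0.25) and with the replicate block (0.053). As single samples were left out, log2 fold changes of anti-Lag3 against isotype ran from -0.88 to 1.87 for Foxp3, -0.26 to 0.58 for Prdm1, -0.061 to 0.31 for Maf, -0.24 to 1.12 for Nfil3 and -0.87 to 0.12 for Ikzf3. Foxp3 in anti-PD1 against isotype ran from -1.73 to 1.01. In anti-PD1 against anti-Lag3, Il10 ran from -0.26 to 0.41 and Ikzf3 from -0.25 to 0.74. The cause was not tested.

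Samples share replicate numbers in their titles, and deviations of same-numbered samples correlated at 0.048, 0.050 and -0.049 over 5433 genes, so the numbers were not taken as pairs. With the number as a block, 3 members were called in anti-PD1 against isotype (Maf with an adjusted p of 0.0243, Nfil3 and Bhlhe40), 144 genes in all, and 0 members in each of the other comparisons.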
